A study of Homo sapiens with 8 samples.

Results

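This report covers 8 genes of the death receptor pathway and of the caspases that act with it, namely CASP8, CASP9, CASP10, TNFRSF10A, TNFRSF10B, FADD, CFLAR and BIRC3. The genes were taken by name, and all 8 were found among the 26360 genes listed in both deposited tables (31582 genes in the inhibitor table and 28942 in the shRNA table). RNA was sequenced from Kyse510, an established human ESCC (esophageal squamous cell carcinoma) line, in 8 libraries with 1 library per condition. The inhibitor libraries came from cells given vehicle, 7 µM SP2509, 7 µM UNC0642 or both compounds for 2 days. SP2509 inhibits the histone demethylase LSD1 and UNC0642 inhibits the histone methyltransferase G9a, and no dose of its own is stated for the combination. The other 4 libraries came from Kyse510 cells that carried a Dox-inducible shRNA against LSD1 (shLSD1) or G9a (shG9a), underwent puromycin selection over 14 days, and afterwards received no Dox or Dox for 2 days. The labels call these stable clones without saying how many clones each library holds. The control of each Dox library was its own line left without Dox, and a line with a non-silencing shRNA given Dox was not analysed here, so Dox itself and the shRNA it induces cannot be told apart.

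Death receptors such as DR4 (encoded by TNFRSF10A) and DR5 (encoded by TNFRSF10B) are cell surface receptors for the ligand TRAIL. When ligand binds, the adaptor FADD joins the receptor to the initiator caspases CASP8 and CASP10, which become active there and then cut downstream proteins. CFLAR encodes c-FLIP, a relative of CASP8 that lacks protease activity and competes for a place on FADD. CASP9 starts the mitochondrial branch of apoptosis on the APAF1 apoptosome, and BIRC3 encodes cIAP2, a ubiquitin ligase at TNF receptors that is itself a well known target gene of NF-kB. These proteins are controlled largely by binding and cleavage, and the data here are RNA levels only.

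Both CFLAR and BIRC3 are textbook NF-kB target genes, so the 250 bases before their start sites were searched on both strands for the NF-kB motif, a degenerate sequence of 10 bases. The motif was found before 1 of 4 CFLAR start sites and at 2 places before the BIRC3 start site, against 5.21% of the 35116 promoters in the RefSeq promoter table (GRCh38.p14) that hold at least 1 match. That share is per promoter, and a gene with 4 start sites, such as CFLAR, has more chances of a match. No match was present before the start sites of CASP8, CASP9 or FADD, which says only that these letters are not in those windows. CASP10 has no promoter in that table, and the promoters of TNFRSF10A and TNFRSF10B were not used. The stretches that hold the matches are shown because BIRC3 had the largest rise of the 8 genes with SP2509 and the largest fall with Dox in shG9a cells, with the matched bases in capitals. The CFLAR stretch is chr2:201118609-201118638 and the BIRC3 stretch is chr11:102317234-102317449, both on the plus strand of GRCh38.
CFLAR: cgcggggggcGGGGAATTCCgcagacagga
BIRC3: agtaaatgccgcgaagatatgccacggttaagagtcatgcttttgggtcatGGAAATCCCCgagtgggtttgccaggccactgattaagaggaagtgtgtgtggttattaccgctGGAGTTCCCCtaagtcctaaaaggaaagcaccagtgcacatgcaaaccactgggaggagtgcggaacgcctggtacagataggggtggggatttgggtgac
Counted from RefSeq start sites, the CFLAR match starts 97 bases before 1 of its 4 sites. The BIRC3 matches, both on the minus strand, start 199 and 135 bases before theirs. These sites are not the gene starts in the deposited coordinates. By those, CFLAR spans chr2:201116104-201176687, so the match at 201118619 lies inside the gene, and BIRC3 starts at 102317450. A match of this kind is a description of sequence and not evidence of binding.

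Levels are given as FPKM, fragments of a gene divided by gene length and library size, which allows genes to be compared per length within a library. Reads behind each value were estimated from the FPKM values, as described under the processing, and library totals ranged from 15662035 to 17889466 reads. A gene was called when it had at least 1 FPKM in at least 1 of the 2 libraries, a ratio of (FPKM + 1) of at least 1.3 in either direction, and an unadjusted two-sided exact binomial p under 0.05 from its reads. Ratios printed with an interval are plain ratios of FPKM with a 95% counting interval, whereas log2 changes are of (FPKM + 1) and understate the change of low genes. With 1 library per condition there is no replicate check, so each p and interval compares 2 libraries and not 2 conditions. In bulk RNA, fewer cells of a type and less RNA per cell cannot be told apart.

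The libraries were first checked against their labels. KDM1A, which encodes LSD1, fell from 26.0 to 6.29 FPKM with Dox in shLSD1 cells, and EHMT2, which encodes G9a, fell from 7.85 to 4.76 FPKM with Dox in shG9a cells. Each gene was also read where it was not the target of an shRNA. In shG9a cells Dox raised KDM1A from 26.4 to 35.8 FPKM, a ratio of 1.36, while in shLSD1 cells EHMT2 stood at 8.0 and 7.97 FPKM without and with Dox. The combination lowered EHMT2 from 11.1 to 5.38 FPKM, a ratio of 0.484 (0.440 to 0.532). Of 8 squamous epithelial markers, 7 or 8 had at least 1 FPKM in every library, with a summed level of 490 to 4742 FPKM. KRT17 alone was 3716 FPKM with SP2509, in the highest sum, and went from 1596 to 158 FPKM with Dox in shG9a cells. SOX2 was under 1 FPKM with SP2509 (0.313 FPKM) and with the combination (0.636 FPKM). KRT6A was under 1 FPKM with vehicle (0.676 FPKM), in shLSD1 cells without and with Dox, and in shG9a cells without Dox. The summed levels of fibroblast markers (3.12 to 6.74 FPKM over 5 genes) and leukocyte markers (0.0365 to 2.73 FPKM over 5 genes) were low, and 2 to 4 of the leukocyte genes were at 0 or not listed in each library. The 4 endothelial markers summed to 3.56 to 14.5 FPKM, nearly all of it CDH5, which was highest in shLSD1 with Dox (14.0 FPKM) and with the combination (11.8 FPKM), and its part in the results was not tested. The 2 tables were made separately, so levels set across them are a description.

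Across the 5 comparisons the 8 genes did not move as a block. With SP2509, 5 rose (TNFRSF10A, TNFRSF10B, CFLAR, CASP9 and BIRC3) and 2 fell (FADD and CASP8), where 18.1% of the 13342 genes tested rose and 37.4% fell. With UNC0642, 1 of 8 rose (TNFRSF10A) and 0 fell, where 15.7% of genes rose and 13.9% fell, and TNFRSF10B and BIRC3 differed from vehicle by more than counting error without reaching the fold. The combination raised 3 (TNFRSF10A, TNFRSF10B and FADD) and lowered 0, where 28.7% rose and 29% fell. In shLSD1 cells, Dox raised 4 (CASP8, CASP10, FADD and CFLAR) and lowered 2 (TNFRSF10A and CASP9), where 22.5% rose and 10.4% fell. In shG9a cells, Dox raised 3 (CASP8, CASP10 and FADD) and lowered 3 (TNFRSF10A, TNFRSF10B and BIRC3), where 29.8% rose and 15.8% fell. All 8 genes passed the filter on low values in all 5 comparisons.

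The share called in either direction over all genes was 55.4% with SP2509, 29.7% with UNC0642, 57.7% with the combination, 32.9% in shLSD1 cells and 45.6% in shG9a cells. Their median log2 change was 0.57 with SP2509, 0.02 with UNC0642, 0.04 with the combination, 0.15 in shLSD1 cells and -0.10 in shG9a cells. Over all genes tested the median was -0.21, -0.01, -0.02, 0.13 and 0.18, so SP2509 falls and Dox rises are in part on the side to which all genes shifted. The bars by library show this mixed picture, and the plot of ratios shows how far each one lies from its control.

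**Figure D1:**
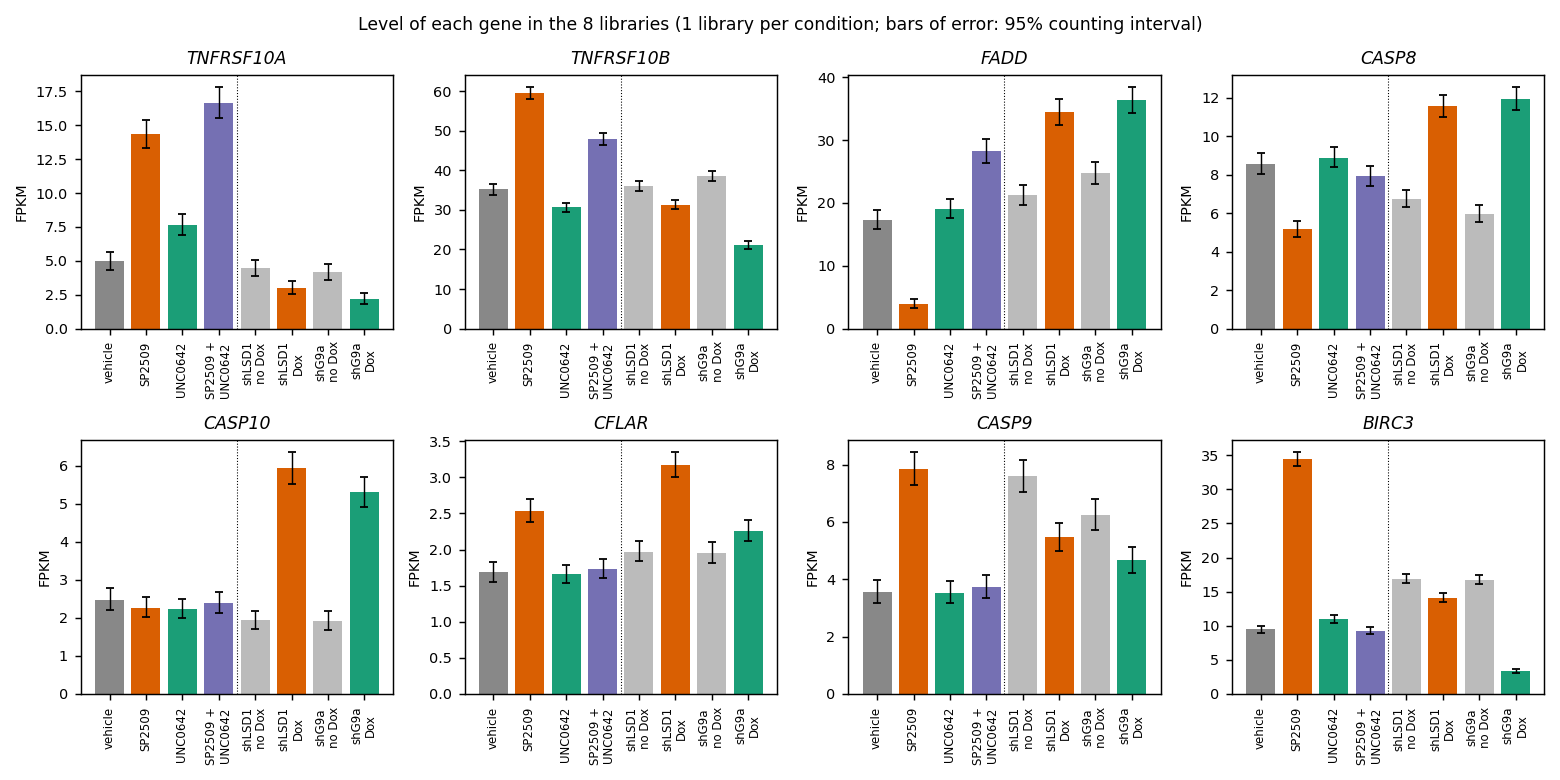
FPKM of the 8 genes in the 8 libraries, with 95% counting intervals and a dotted line between the inhibitor and the shRNA libraries. BIRC3 stands at 34.5 FPKM with SP2509 and 3.35 FPKM in shG9a with Dox, and FADD at 3.94 FPKM with SP2509 against 17.3 to 36.4 FPKM in the other 7 libraries.

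**Figure D2:**
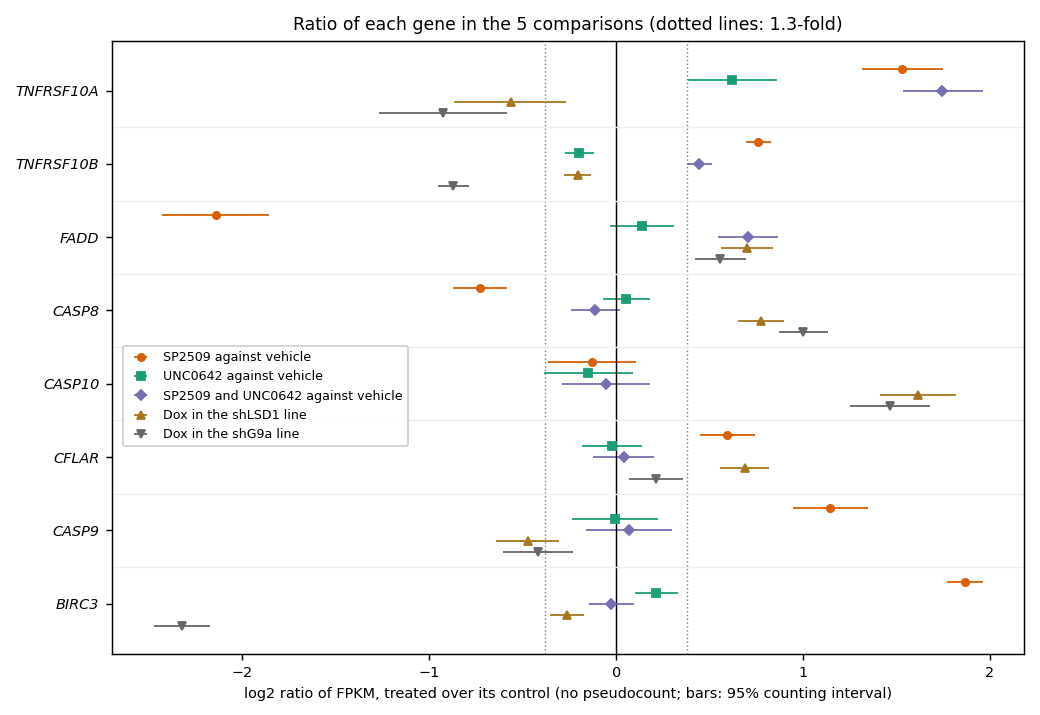
Log2 ratio of FPKM, without a pseudocount, for each gene in the 5 comparisons, with 95% counting intervals and dotted lines at 1.3-fold (calls use FPKM + 1). The 3 inhibitor values of TNFRSF10A lie right of 0 and both Dox values left of it, while CASP10 is called in the 2 shRNA lines only.

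TNFRSF10A rose in each inhibitor library and fell with Dox in both lines, and TNFRSF10B went the same way in the 3 comparisons in which it was called. TNFRSF10A (ENSG00000104689, GRCh38 chr8:23190452-23225126, minus strand) was measured at 4.98 FPKM under vehicle, 14.4 with SP2509, 7.65 with UNC0642 and 16.7 with both. Without and with Dox it was at 4.47 and 3.02 FPKM in shLSD1 cells and at 4.16 and 2.19 FPKM in shG9a cells. It was the only one of the 8 genes called in all 5 comparisons. The rise was 2.88-fold with SP2509 (2.48 to 3.36, exact binomial p = 6.85e-52), 1.54-fold with UNC0642 (1.3 to 1.82) and 3.35-fold with the combination (2.89 to 3.90). The Dox ratio was 0.676 in shLSD1 cells (0.548 to 0.831, exact binomial p = 0.000141) and 0.527 in shG9a cells (0.415 to 0.667), from 112 to 234 reads per library.

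TNFRSF10B (ENSG00000120889, chr8:23020133-23069179, minus strand) was the most highly expressed of the 8 genes per length in 6 of the 8 libraries, with FADD above it in both Dox libraries. It stood at 35.2 FPKM under vehicle, 59.6 with SP2509, 30.7 with UNC0642 and 47.9 with both. It rose with SP2509 by a ratio of 1.69 (1.62 to 1.77) and with the combination by 1.36 (1.3 to 1.43). The ratio with UNC0642, 0.873 (0.828 to 0.920), did not reach the fold criterion, and the counting intervals of the 4 inhibitor libraries do not overlap. The shLSD1 cells held 36.1 FPKM without and 31.3 with Dox, short of a call, whereas in shG9a cells it fell from 38.6 to 21.1 FPKM, a ratio of 0.547 (0.516 to 0.579).

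Within a library the balance of the 2 receptors does not depend on the library total. TNFRSF10B over TNFRSF10A was 7.07 with vehicle (6.18 to 8.12), 4.15 with SP2509, 4.01 with UNC0642 and 2.87 with both (2.66 to 3.10). In shLSD1 cells it was 8.08 (7.08 to 9.27) without and 10.4 (8.82 to 12.3) with Dox, and in shG9a cells 9.29 and 9.63. The intervals overlap in both lines, which does not show that the balance was unchanged. The difference itself was not tested. DR4 transcripts thus took a larger part of the pair in each inhibitor library than with vehicle.

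The receptor loci hold other transcripts that bear on these values. TNFRSF10A-AS1, an antisense gene that overlaps TNFRSF10A, had 1.60 FPKM under vehicle, 0.970 with SP2509, 2.28 with UNC0642 and 6.14 with both, from 11 to 66 reads. AC100861.1, which also overlaps TNFRSF10A on the other strand, had 59 reads under vehicle, 24 with SP2509, 39 with UNC0642 and 67 with both. With Dox it went from 32 to 81 reads in shLSD1 cells and from 43 to 28 in shG9a cells. RHOBTB2, which overlaps TNFRSF10B on the other strand, had 8.03 FPKM under vehicle, 6.25 with SP2509 and 4.54 with the combination, and rose from 2.37 to 5.42 FPKM with Dox in shLSD1 cells. The strand setting of the counting is not given in the sources used here, so reads of such pairs cannot be told apart. TNFRSF10A, TNFRSF10B, TNFRSF10C and TNFRSF10D are close paralogs, and their counts are uncertain to the extent that reads were shared among them.

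FADD (ENSG00000168040, chr11:70203163-70207390, plus strand), the adaptor, changed most with SP2509. It was at 17.3 FPKM under vehicle, 3.94 with SP2509, 19.1 with UNC0642 and 28.3 with both. SP2509 alone is the only one of the 8 libraries with FADD under 17 FPKM. The ratio to vehicle was 0.227 (0.186 to 0.276, from 129 and 500 reads, exact binomial p = 2.22e-63), and 1.61% of all genes tested fell as far or further. With UNC0642 the level was not called, and with the combination FADD rose 1.63-fold (1.46 to 1.82). Dox raised it from 21.2 to 34.4 FPKM in shLSD1 cells and from 24.7 to 36.4 FPKM in shG9a cells, 1.62-fold (1.48 to 1.79) and 1.47-fold (1.34 to 1.62). The call in shG9a cells was lost when ratios were scaled by TMM (a trimmed mean of all ratios), with a log2 change of 0.31.

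CASP8 (ENSG00000064012, chr2:201233443-201287711, plus strand), the main initiator caspase of the receptors, moved in the same directions as FADD with SP2509 and with Dox. Its level was 8.55 FPKM under vehicle, 5.16 with SP2509, 8.88 with UNC0642 and 7.92 with both. SP2509 lowered it to 0.604 of vehicle (0.546 to 0.667, exact binomial p = 4.96e-24), a call that TMM scaling removed (log2 change -0.36). Neither UNC0642 nor the combination gave a call, with ratios of 1.04 and 0.926. With Dox it rose from 6.76 to 11.6 FPKM in shLSD1 cells (1.71-fold, 1.57 to 1.86) and from 5.97 to 12 FPKM in shG9a cells (2.00-fold, 1.83 to 2.19).

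CASP10 (ENSG00000003400, chr2:201182881-201229406, plus strand), the second initiator caspase of the receptors, was called in the 2 Dox comparisons only. The 4 inhibitor libraries held 2.48 FPKM under vehicle, 2.27 with SP2509, 2.24 with UNC0642 and 2.39 with both, and the counting intervals of these values overlap. The SP2509 ratio of 0.915 turned to the other side when ratios were centred on their median or scaled by TMM, with log2 changes of 0.0047 and 0.19. Dox raised CASP10 from 1.94 to 5.94 FPKM in shLSD1 cells and from 1.93 to 5.31 FPKM in shG9a cells. These rises, 3.06-fold (2.66 to 3.53, exact binomial p = 9.91e-64) and 2.76-fold (2.38 to 3.21), were the largest of the 8 genes in each line. Of all genes tested in shLSD1 cells, 1.68% rose as far or further.

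CFLAR (ENSG00000003402, chr2:201116104-201176687, plus strand), the brake on CASP8, had 1.68 FPKM under vehicle, 2.54 with SP2509, 1.66 with UNC0642 and 1.73 with both. It rose 1.51-fold with SP2509 (1.36 to 1.67), and the other 2 inhibitor libraries were within counting error of vehicle, with a log2 change for the combination that turned to -0.010 when ratios were centred. It rose in shLSD1 cells from 1.97 to 3.17 FPKM (1.61-fold, 1.47 to 1.76), a call lost under TMM scaling (log2 change 0.34). In shG9a cells it went from 1.95 to 2.26 FPKM, not called, and the sign of its log2 change turned under TMM scaling (-0.089). The FPKM level of CFLAR rests on a gene length of 22529 bases, the longest of the 8, so its low level against the others depends on the gene model, while ratios between libraries do not.

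The ratio of CFLAR to CASP8 sets the RNA of the brake beside that of the protease inside each library. Both values are per gene and do not separate transcript forms. It was 0.197 with vehicle (0.177 to 0.218), 0.492 with SP2509 (0.446 to 0.543), 0.187 with UNC0642 and 0.219 with both. SP2509 alone therefore stood apart from the other 3 inhibitor libraries. The ratio was 0.292 without and 0.275 with Dox in shLSD1 cells, where the intervals overlap and the difference was not tested. In shG9a cells it was 0.327 (0.294 to 0.363) without and 0.189 (0.174 to 0.206) with Dox. CASP10 over CASP8 was 0.290 with vehicle and 0.439 with SP2509, and it rose with Dox from 0.287 to 0.514 in shLSD1 cells and from 0.323 to 0.445 in shG9a cells.

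**Figure D3:**
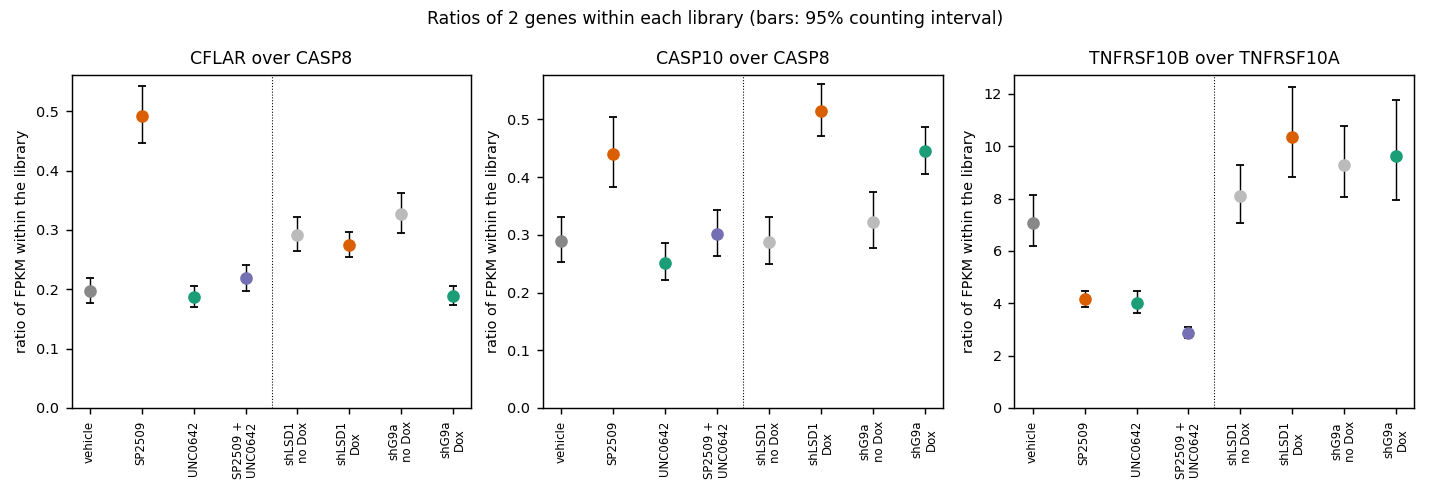
Ratios of FPKM of 2 genes within each of the 8 libraries, with 95% counting intervals. CFLAR over CASP8 reaches 0.492 with SP2509 against 0.187 to 0.219 in the other inhibitor libraries, and TNFRSF10B over TNFRSF10A falls from 7.07 with vehicle to 2.87 with both inhibitors.

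CASP9 (ENSG00000132906, chr1:15490832-15526534, minus strand), the initiator of the mitochondrial branch, was at 3.55 FPKM under vehicle, 7.86 with SP2509, 3.53 with UNC0642 and 3.72 with both. It rose 2.21-fold with SP2509 (1.93 to 2.54, exact binomial p = 2.35e-33), and the other 2 ratios were 0.995 and 1.05. With Dox it fell from 7.59 to 5.46 FPKM in shLSD1 cells, a ratio of 0.720 (0.641 to 0.808). In shG9a cells it went from 6.24 to 4.67 FPKM, a ratio of 0.748 (0.657 to 0.851) that missed the fold criterion with the pseudocount of 1 and met it with a pseudocount of 0.1, with none, with centring and with TMM scaling. The mean of both uninduced libraries as control changed both outcomes, with a log2 change of -0.29 (not called) in shLSD1 cells and -0.48 (called) in shG9a cells.

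BIRC3 (ENSG00000023445, chr11:102317450-102339403, plus strand), whose promoter stretch is printed above, had 9.45 FPKM under vehicle, 34.5 with SP2509, 11 with UNC0642 and 9.28 with both. The rise with SP2509 was 3.65-fold (3.41 to 3.90, from 1113 and 4614 reads), and the level with both compounds was back at that of vehicle within counting error, at a ratio of 0.982. It was at 16.9 FPKM without and 14.1 with Dox in shLSD1 cells, a ratio of 0.833 (0.783 to 0.886) that reached a call only under TMM scaling (log2 change -0.40). It fell in shG9a cells from 16.8 to 3.35 FPKM, 5.0-fold lower with Dox (exact binomial p = 2.75e-273), and 1.26% of genes fell as far or further. The highest and the lowest BIRC3 levels, set across both tables, were thus those with SP2509 and in shG9a cells with Dox.

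The Dox ratios of the 2 lines were also set against each other with a counting interval for the ratio of ratios. BIRC3 fell further in shG9a cells, with a ratio 0.240 times that of the shLSD1 line (0.213 to 0.270), as did TNFRSF10B at 0.630 (0.585 to 0.680). CFLAR stood at 0.720 (0.630 to 0.822) and CASP8 at 1.17 (1.04 to 1.32). For CASP9, CASP10, TNFRSF10A and FADD the interval held 1, from 0.573 at the lowest bound (TNFRSF10A) to 1.23 at the highest (CASP9), which leaves differences of that size undecided.

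The combination was also compared with each inhibitor alone. Against SP2509 alone, where 39.1% of 13658 genes rose and 22% fell (61.1% in either direction), FADD was 7.18-fold higher (5.96 to 8.70) and CASP8 1.53-fold higher. CASP9 and BIRC3 were lower, at 0.474 (0.415 to 0.540) and 0.269 (0.252 to 0.287) of the SP2509 level. The remaining 4 genes were not called, with ratios from 0.681 (CFLAR) to 1.16 (TNFRSF10A). The counting intervals of CFLAR (0.617 to 0.752) and of TNFRSF10B, at a ratio of 0.804 (0.772 to 0.837), also left out 1, and neither gene reached the fold criterion, which CFLAR missed through the pseudocount (log2 change -0.37). Against UNC0642 alone, where 25% of 13637 genes rose and 24.5% fell (49.5% in either direction), TNFRSF10A was 2.18-fold (1.93 to 2.46), TNFRSF10B 1.56-fold (1.49 to 1.64) and FADD 1.48-fold higher (1.33 to 1.64), and the other 5 genes were not called. The plot of the 3 inhibitor libraries sets these values side by side, and all 3 share the vehicle library.

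**Figure D4:**
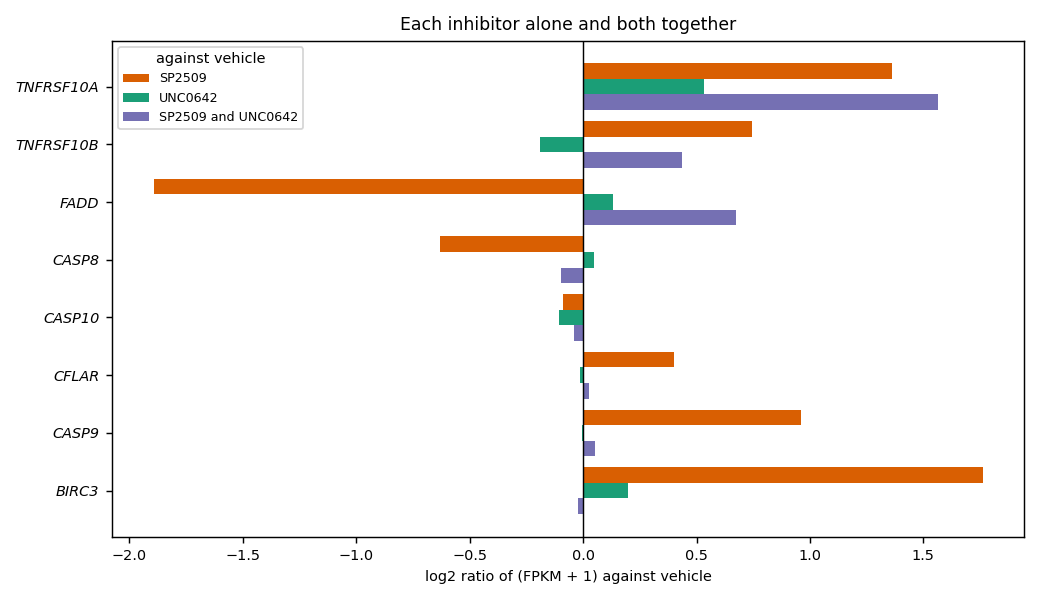
Log2 ratio of (FPKM + 1) to vehicle for each gene with SP2509, UNC0642 and both. FADD is at -1.89 with SP2509 and 0.67 with both, and BIRC3 at 1.76 with SP2509 and -0.02 with both.

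Other genes of the pathway were counted by list, starting with ligands and their receptors. The counts of each list are to be read beside the shares over all genes given above, and no list was tested. With SP2509, for example, 18.1% of all genes tested rose and 37.4% fell. TNFSF10, which encodes the DR4 and DR5 ligand TRAIL, moved against TNFRSF10A. It was at 6.97 FPKM under vehicle and fell to 4.46 with SP2509, 2.22 with UNC0642 and 2.08 with both, and it rose with Dox from 5.53 to 27.9 FPKM in shLSD1 cells and from 5.29 to 24 FPKM in shG9a cells. TNFRSF10D, a decoy receptor for TRAIL that carries no working death domain, followed TNFRSF10A in direction. It rose from 3.63 FPKM under vehicle to 9.87, 15.6 and 65.7 FPKM in the 3 inhibitor libraries and fell from 10.3 to 6.49 and from 9.45 to 5.52 FPKM with Dox. TNF rose from 0.800 FPKM under vehicle to 2.98, 2.30 and 3.57 FPKM, from 21 reads with vehicle. FAS, another death receptor, fell with UNC0642 from 4.82 to 3.14 FPKM and in shG9a cells from 3.68 to 1.82 FPKM. TNFRSF1A, the main TNF receptor, fell with the combination from 24.3 to 13.2 FPKM. TNFRSF21 rose from 33.2 to 58.1 FPKM in shLSD1 cells, and TNFRSF25 from 3.83 to 9.46 FPKM in shG9a cells. Of the genes that passed the filter, 4 of 7 rose with SP2509 and 1 fell, 4 of 7 rose and 2 fell with UNC0642, 4 of 8 rose and 3 fell with the combination, 4 of 6 rose and 1 fell in shLSD1 cells, and 3 of 7 rose and 2 fell in shG9a cells.

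Of 14 adaptors and kinases at the receptors that passed the filter, 1 rose and 4 fell with SP2509. RIPK1, the kinase that the TNF receptor complex recruits, fell from 7.85 to 3.56 FPKM and TRAF3 from 8.22 to 4.13 FPKM, while PEA15, a death effector domain protein that can bind FADD, rose from 38.7 to 53.5 FPKM. UNC0642 lowered 1 of 14, RBCK1 of the linear ubiquitin ligase, from 29.8 to 19.1 FPKM. With the combination 5 of 14 rose and 2 fell, among them PEA15 at 191 FPKM and TRAF1, a partner of the cIAP proteins, from 1.3 to 7.28 FPKM. DEDD and RNF31 fell by 0.51 and 0.45 on the log2 scale. In shLSD1 cells 4 of 14 rose and 0 fell, led by TRAF3 (4.03 to 6.97 FPKM) and RIPK1 (5.23 to 8.61 FPKM). In shG9a cells 4 of 15 rose and 2 fell, with RIPK1 from 5.77 to 9.95 FPKM, RNF31 from 3.75 to 5.64, PEA15 from 31.9 to 17.9 and RBCK1 from 61.5 to 38.2 FPKM.

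Among the other caspases, CASP6 fell with SP2509 (7.89 to 5.64 FPKM) and with the combination (5.55 FPKM) and rose in shG9a cells from 5.63 to 12.8 FPKM. The inflammatory caspases CASP1 and CASP4 rose with SP2509 from 7.30 to 10.8 and from 6.25 to 10.7 FPKM, and CASP1 fell to 2.98 FPKM with the combination. CASP14, a caspase of cornifying epithelium, rose with UNC0642 from 0.822 to 5.47 FPKM and with the combination to 2.83 FPKM, and fell in shLSD1 cells from 10.1 to 4.83 FPKM and in shG9a cells from 12.9 to 0.116 FPKM. CASP5 fell in shG9a cells from 1.03 to 0.181 FPKM, from only 27 and 5 reads and a level close to the filter. The counts up and down were 3 and 2 of 6 with SP2509, 1 and 0 of 7 with UNC0642, 5 and 2 of 7 with the combination, 3 and 1 of 7 in shLSD1 cells, and 3 and 3 of 8 in shG9a cells.

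Of 8 apoptosome and mitochondrial factors that passed, 0 rose and 4 fell with SP2509, while 6 rose and 1 fell with the combination. CYCS, which encodes cytochrome c, was at 70.2 FPKM under vehicle, 20.9 with SP2509 and 125 with the combination. AIFM1, a mitochondrial flavoprotein, fell from 21.8 FPKM under vehicle to 9.24 with SP2509 and 10.7 with the combination, and BAX, which forms pores in the outer mitochondrial membrane, rose from 16.3 to 23.2 FPKM with UNC0642 and to 37.9 with the combination. APAF1, the scaffold that activates CASP9, rose with UNC0642 from 2.54 to 4.23 FPKM and in shG9a cells from 2.11 to 5.19 FPKM. UNC0642 raised 2 and lowered 0, and Dox raised 1 (CYCS, 23.5 to 41.7 FPKM) in shLSD1 cells and 4 in shG9a cells, where AIFM1 went from 14.3 to 23.7 FPKM, with 0 lowered in either line.

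Several other inhibitors of apoptosis proteins bind caspases or, like BIRC3, act as ubiquitin ligases. With SP2509, XIAP, a direct inhibitor of CASP9, fell from 8.0 to 3.91 FPKM and BIRC7 rose from 0.572 to 3.09 FPKM, 1 of 5 in each direction. BIRC2, which encodes the closely related cIAP1 next to BIRC3, fell from 43.4 FPKM under vehicle to 32.5 with UNC0642 and 29.0 with both, which also lowered BIRC5 from 19.5 to 11.8 FPKM. These were 1 of 5 and 2 of 4 genes that passed. In shLSD1 cells BIRC5 rose from 7.85 to 13.5 and XIAP from 4.03 to 6.02 FPKM, 2 of 5. In shG9a cells 0 of 5 were called, with a list median of 0.09 against 0.18 over all genes.

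Caspase substrates of the death programme gave mixed counts. SP2509 raised 3 of 10 and lowered 4, among them PARP1, a DNA repair enzyme cut by caspases, from 49.8 to 12.2 FPKM and LMNB1 of the nuclear lamina from 42.6 to 14.1 FPKM, while GSDME, a pore former of the gasdermin family, rose from 1.27 to 3.84 FPKM (its read number is uncertain for want of a common length) and ACIN1 from 29.3 to 45.3 FPKM. UNC0642 raised 1, GSDME, to 3.33 FPKM. With the combination 2 rose, LMNA from 86.4 to 122 and SPTAN1 from 19 to 25.1 FPKM, and 5 fell, with LMNB1 at 21.8 FPKM and ROCK1 from 4.0 to 1.89 FPKM. Dox raised LMNB1 in both lines, from 7.75 to 21.1 and from 9.47 to 42.4 FPKM, and DFFB, the nuclease of the apoptotic DNA ladder, from 1.94 to 3.06 and from 1.58 to 4.39 FPKM. PARP1 fell from 17.8 to 9.23 FPKM in shLSD1 cells, where the counts were 2 up and 1 down, and GSDME from 1.07 to 0.340 FPKM in shG9a cells, where they were 5 and 1.

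NF-kB target genes other than BIRC3 and CFLAR mostly moved in the direction of BIRC3 with SP2509 and in shG9a cells. CFLAR shared the rise with SP2509 (1.51-fold) but not the fall in shG9a cells, where its ratio was 1.16 (1.05 to 1.28), not called. In shLSD1 cells CFLAR rose 1.61-fold. With SP2509, 10 of 13 rose and 1 fell, with TNFAIP3, the deubiquitinase that limits NF-kB, at 27.9 FPKM under vehicle and 365 with SP2509, and the chemokine CXCL8 at 29.1 and 397 FPKM. CXCL1 fell from 88.9 to 24.3 FPKM, with a read number that is uncertain because the tables gave no common length for it. With Dox in shG9a cells 12 of 12 fell, with CXCL8 from 52.5 to 0.863 FPKM and TNFAIP3 from 85.5 to 5.56 FPKM, and the list median was -1.15 against 0.18 over all genes. BIRC3 itself was not called with UNC0642 or the combination, where 8 of 14 and 9 of 14 genes of the list rose and 1 and 3 fell. There CXCL8 reached 153 FPKM and TNFAIP3 101 FPKM with UNC0642, IL6 rose from 0.278 to 8.96 FPKM and BCL2A1 from a listed 0 to 2.34 FPKM with the combination. NFKB1 fell from 22.5 to 16.2 and 8.87 FPKM, and CXCL1 to 14.2 FPKM with the combination. In shLSD1 cells 2 of 12 rose, SOD2 from 12.8 to 44.1 FPKM and CXCL1 from 50.7 to 86.3 FPKM, and 3 fell, with TNFAIP3 from 86.6 to 13.1 FPKM and CXCL8 from 49.4 to 14.2 FPKM.

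Of 8 transcription factors known to act at promoters of these genes, DDIT3 (CHOP), an activator of TNFRSF10B in stressed cells, fell in all 5 comparisons. It was at 70.6 FPKM under vehicle, 17.3 with SP2509, 5.70 with UNC0642 and 22.6 with both, and fell from 49.9 to 27.8 FPKM in shLSD1 cells and from 59.5 to 3.58 FPKM in shG9a cells. TNFRSF10B rose in 2 of these comparisons and fell in 1. The RNA levels of DDIT3 and TNFRSF10B thus did not move together throughout, and a link between the 2 genes was not tested. MYC rose from 137 to 697 FPKM with SP2509 and fell from 219 to 105 and from 206 to 67.2 FPKM with Dox. FOXO3 rose from 20.8 to 34.4 FPKM with SP2509 and to 30.8 with the combination, which also raised RELA, the main NF-kB subunit, from 19.4 to 48.4 FPKM. IRF1, an interferon response factor, rose with Dox in both lines, from 9.41 to 16.4 and from 8.19 to 14.4 FPKM, and fell with UNC0642 from 6.39 to 2.72 FPKM. The counts up and down were 4 and 1 with SP2509, 0 and 3 with UNC0642, 4 and 1 with the combination, 3 and 3 in shLSD1 cells, and 2 and 5 in shG9a cells.

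**Figure D5:**
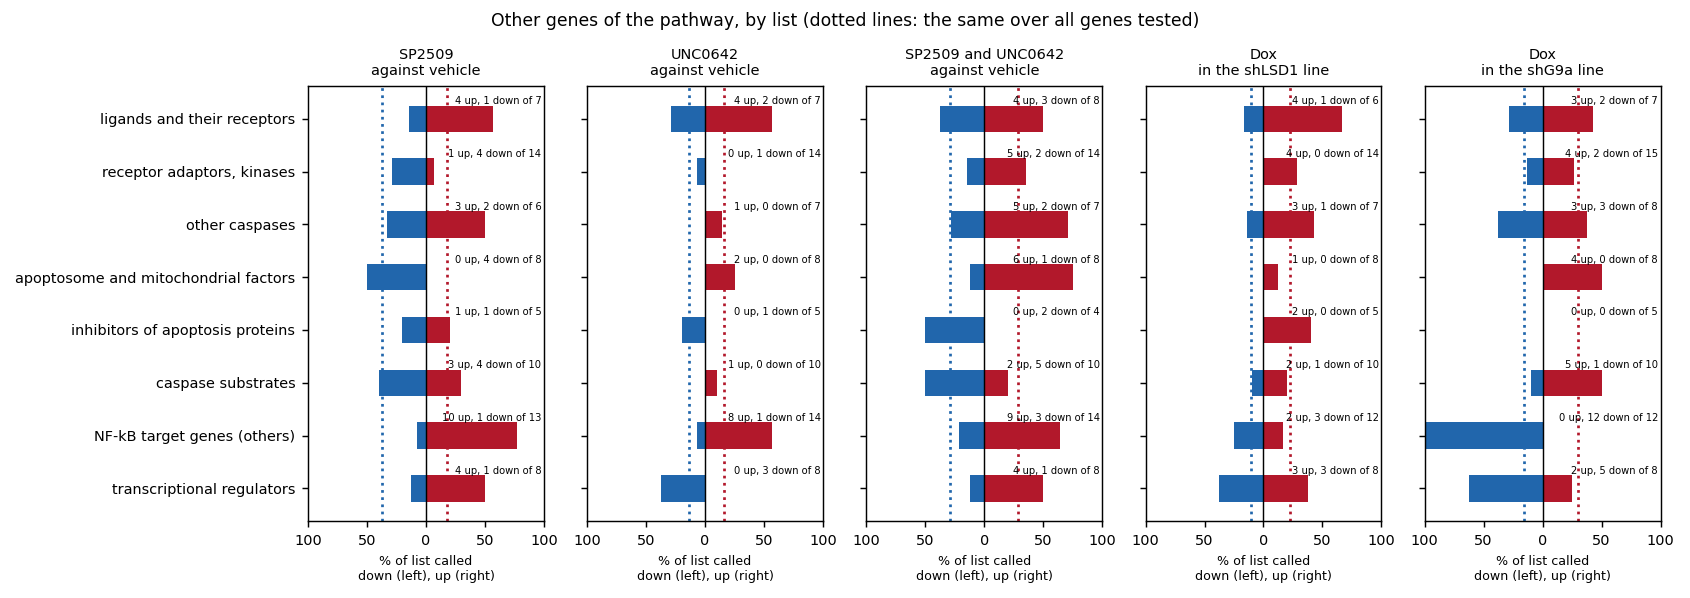
Percent of each list called down (left, blue) and up (right, red) in the 5 comparisons, with counts printed and dotted lines at the percent of all genes tested. The list of NF-kB target genes shows 10 of 13 up with SP2509 and 12 of 12 down with Dox in shG9a cells.

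The 8 genes lie in 5 places of the genome, and their protein-coding neighbours within 250 kb were read the same way. CFLAR, CASP10 and CASP8 are adjacent on chromosome 2, and in that cluster Dox raised CASP10, CASP8, STRADB and TRAK2 in both lines. Of the 5, 6 and 8 neighbours of CASP8, CASP10 and CFLAR that passed the filter, 0 were called down in either line. Over all genes, 10.4% fell in shLSD1 cells and 15.8% in shG9a cells, while 22.5% and 29.8% rose. ORC2 and PPIL3 were called in neither line. STRADB changed by 1.25 and 0.68 and TRAK2 by 0.40 and 1.07 on the log2 scale in the shLSD1 and shG9a lines. With SP2509, STRADB fell by 1.08 and TRAK2 by 1.12, while CFLAR rose and NIF3L1 fell (-0.91). With the combination STRADB was at -0.56 and TRAK2 at 0.40. NDUFB3 rose with UNC0642 (0.45) and in shG9a cells (0.63), where NIF3L1 also rose (0.59).

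Near the receptors on chromosome 8, LOXL2, which encodes a matrix amine oxidase, had the same directions as TNFRSF10A and TNFRSF10D in all 5 comparisons. Its log2 changes were 2.16, 1.56 and 1.74 in the inhibitor libraries and -1.15 and -2.82 in the shLSD1 and shG9a lines. R3HCC1 fell with SP2509 (-0.43) and the combination (-1.04). At the CASP9 locus EFHD2 rose in all 3 inhibitor libraries (1.47, 1.07 and 1.22) and fell with Dox (-1.60 and -1.49), and AGMAT did the reverse (-1.17, -0.38 and -0.72, then 0.71 and 0.44). FBLIM1 was at 0.55 with SP2509, 0.41 with the combination and -1.10 in shG9a cells, PLEKHM2 at 0.47 and 0.43 with SP2509 and the combination, DNAJC16 at -0.67 and -0.54, and DDI2 at -0.69 with SP2509, 0.41 with the combination and 0.55 in shG9a cells. Beside BIRC3, MMP7 rose with SP2509 (1.59), the combination (0.63) and in shLSD1 cells (1.12) and fell in shG9a cells (-0.47), while YAP1 fell with SP2509 (-0.57) and the combination (-0.89). TMEM123 fell with the combination (-0.53) and with Dox in both lines (-0.40 and -1.20). C11orf70, the name that the inhibitor table gives to the gene named CFAP300 in the shRNA table, fell in all 3 inhibitor libraries (-0.40, -0.39 and -1.03) and in both lines (-0.66 and -0.87). BIRC2 is given above with its family. FADD had 3 such neighbours, and none was called in more than 1 comparison.

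Finally, the genes whose 5 log2 changes lay closest to those of a member were found among 10054 protein-coding genes, by the root mean square difference. For CASP8 these were TFAM (0.0821) and CSTF2 (0.0963), for TNFRSF10A ETS1 (0.106) and YOD1 (0.177), for TNFRSF10B OLFML2A (0.101) and CASP4 (0.126), and for FADD CYCS (0.127) and VCP (0.156). CYCS thus stood nearest to FADD in the 5 comparisons, with log2 changes of -1.70, 0.18, 0.83, 0.80 and 0.52 beside -1.89, 0.13, 0.67, 0.67 and 0.54. The likeness is over 5 ratios from 8 libraries, 3 of which share vehicle.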

How the data were processed

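Per the labels and the study's methods, low-quality reads and adapter contamination were removed, paired-end reads of 150 bases were mapped to GRCh38 (Ensembl release 87), and the authors deposited FPKM values in 2 tables, 1 for the inhibitors and 1 for the shRNA lines. The aligner, the counting tool and the strand setting are not given in the sources used here. Conditions came from the labels.

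Reads were recovered from the FPKM values with Python 3.11.15, numpy 2.4.6, pandas 2.3.3 and scipy 1.17.1, and figures were drawn with matplotlib 3.10.9. Library totals came from the value of 1 read in single-exon genes, and each gene's length was the smallest that gave whole reads (within 0.02 read) in every library. Of 12567 genes that reached 1 FPKM in some library of each table and had a length there, 11090 were given 1 common length and 1477 kept a length per table, 572 of them apart by more than 1.5 times, so the reads of those genes (CXCL1 and GSDME in the inhibitor table, for example) are uncertain. The estimated reads made up 98.9% to 99.2% of each total, 1 gene per table gave no whole reads, and all 8 members gave the same length in both tables. Calls joined a two-sided exact binomial test of these reads with a 1.3-fold ratio of (FPKM + 1), over all genes of a table. On simulated data for SP2509 against vehicle, 97.0% of 13248 genes had exact reads, 100 of 100 genes raised 2-fold and 99 of 100 lowered were called, and 97 of 12655 unchanged genes were called. The simulation used the recovered lengths and totals and drew counting error alone, and the changed genes were chosen above a minimum of reads and FPKM. It held no spread between cultures, so its call rates do not carry over to the real libraries. Intervals cover counting error only.

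The members and lists were chosen with earlier results of these data known. Named genes are the members, up to 2 largest rises and 2 largest falls called per list and comparison, neighbours called in at least 2 comparisons, the 2 genes most like each member called in at least 3 comparisons, and the targeted genes. A few genes that this rule names are not reported here by name, but they remain in the counts of their lists. Lists covered ligands and receptors, adaptors and kinases, other caspases, mitochondrial factors, inhibitors of apoptosis proteins, substrates, NF-kB targets, regulators, and markers of squamous, fibroblast, leukocyte, endothelial and glandular cells (the last summed to at most 1.43 FPKM). TNFRSF6B was not listed in either table and RIPK3 not in the inhibitor table, and DIABLO, listed more than once in the shRNA table, was left out there. Genes overlapping members, promoter matches and the ratio of Dox ratios were added after the values were seen. Alternatives were pseudocounts of 0.1 and 0, no filter or a minimum of 5 FPKM, a fold of 2, centring, TMM scaling, Benjamini-Hochberg adjustment, fold alone, lengths from the own table alone, the longer of both lengths (added after the data were seen), and for Dox the mean of both uninduced libraries as control.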

Additional observations from a re-analysis of the deposited data

Results flagged for a closer look

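The effect of Dox was measured in 2 lines, and for 4 of the 8 genes the 95% counting interval of the ratio of the shG9a Dox ratio to the shLSD1 Dox ratio left out 1. This ratio of ratios was 1.17 for CASP8, 0.630 for TNFRSF10B, 0.720 for CFLAR and 0.240 for BIRC3. The share of all genes whose interval leaves out 1 was not computed, so the count cannot be called particular to these genes. The interval covers counting error between 4 libraries and no spread between cultures, and KDM1A and EHMT2 were not lowered to the same extent in their lines, at 0.242 and 0.607 of the uninduced level. Their part in these differences was not tested.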

How the results depend on the processing

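With 1 library per condition, the limit on every value is the missing spread between cultures. No paired analysis was possible because each group has 1 library and no replicate numbers. The fold threshold moved the counts of members called most. At a fold of 2 they were 3 with SP2509, 0 with UNC0642, 1 with the combination, 1 in the shLSD1 line and 2 in the shG9a line, where 18.8%, 5.97%, 20.2%, 5.11% and 9.42% of all genes were called. A reversed sign was seen only for log2 changes that were not called, namely CASP10 with SP2509 (0.0047 when centred on the median and 0.19 with TMM scaling), CFLAR with the combination when centred (-0.010) and CFLAR in the shG9a line with TMM scaling (-0.089). TMM scaling removed 3 calls (CASP8 with SP2509, CFLAR in the shLSD1 line and FADD in the shG9a line) and added 2 (BIRC3 in the shLSD1 line and CASP9 in the shG9a line at -0.59), and the mean of both uninduced libraries as control moved 2 calls of CASP9, given in the report. The cause was not tested. All 40 member results kept their call with Benjamini-Hochberg adjustment, with fold alone, without a filter and with lengths from the own table, as did the 28 that a minimum of 5 FPKM left. For genes with no common length, taking the longer of both, a choice made after the data were seen, changed 0 calls of members and 0 of the pathway lists. A pseudocount of 1 moved most within-library ratios, for example CFLAR over CASP8 with SP2509 to 0.574.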
